A study of Sus scrofa with 12 samples.

Results

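Sarcomere and Z-disc genes code for the contractile unit of heart muscle and for the proteins that anchor it. A list of 39 such genes was proposed by their function, with earlier results of these data known, and the 26 that the probe table of the array names were followed across all 12 pigs. They stand among 10912 named genes and 27558 probe sets in all. The 13 members without a named probe set, MYH6, MYLK3, TNNT2, TNNI3, TNNT1, TNNI1, MYOM2, MYPN, SYNPO2L, LMOD3, DES, CRYAB and SMPX, have no value here. The main forms of cardiac troponin T and troponin I are thus not among the genes described.

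RNA came from the infarcted anterior wall of the left ventricle of female Large White pigs, taken on day 7 post-therapy, with 1 Affymetrix array per pig. All pigs had an acute myocardial infarction (AMI) made by balloon occlusion, and all were treated into the pericardial sac. The 4 AMI/S-endMSCs* pigs received the concentrated secretome of human endometrial mesenchymal stromal cells that had been primed by IFNγ and TNFα. The 4 AMI/S-endMSCs pigs received the secretome of the same kind of cells without priming, and the 4 AMI/Placebo pigs received the concentration medium alone. The paper calls these secretomes S-MenSCs, after menstrual blood, their source. The secretomes are thus products of human cells given to pigs, and no uninfarcted heart is part of these groups. The 3 comparisons ask whether either secretome changed the infarcted tissue, and whether priming made a difference.

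In the sarcomere, myosin of the thick filaments pulls on actin of the thin filaments when calcium binds to troponin C and tropomyosin uncovers actin. Thin filaments are anchored at the Z-disc, a lattice of alpha-actinin and of many adaptor and signalling proteins. Titin spans from the Z-disc to the M-band, where thick filaments are held together. In an infarct, dead cardiomyocytes lose these proteins and their transcripts, and granulation tissue takes their place. Tissue from the infarct and its border can hold surviving muscle in varying amounts.

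The deposited values are on the log2 scale, on which a difference of 1 is a doubling, and they ran from 0.17 to 13.22 over all probe sets. The middle of the array lay at 2.78, and 25 of the 26 members had a mean above it. The member below was MYL4, at 2.40. Heart muscle, scar and macrophage markers were present in this tissue: 11 of 12 cardiomyocyte markers outside the sarcomere, 15 of 15 fibroblast and scar matrix markers and 12 of 13 macrophage markers lay above the middle of the array. Of 11 skeletal muscle markers, 4 did. The interquartile range of an array ran from 1.66, in AMI/S-endMSCs replicate 1, to 2.51. The same pig had the lowest mean correlation with the other arrays, 0.821, against 0.911 for the highest.

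The members were high in 3 of the 4 AMI/S-endMSCs* pigs, and low in the other one. The mean of the 26 members, each taken relative to its own mean over the 12 pigs, was 1.46, -1.01, 1.52 and 1.18 on the log2 scale in AMI/S-endMSCs* replicates 1 to 4. It was -1.51, -0.38, -0.88 and 0.07 in AMI/S-endMSCs and -0.26, 0.31, -1.06 and 0.56 in AMI/Placebo. AMI/S-endMSCs* replicates 1, 3 and 4 held the 3 highest values of 16 members, and lay above all 4 AMI/S-endMSCs pigs for 21 members and above all 4 AMI/Placebo pigs for 17. AMI/S-endMSCs* replicate 2 was the lowest of its group for 26 of 26 members, below the AMI/S-endMSCs mean for 23 and below the AMI/Placebo mean for 25. The low end was held by AMI/S-endMSCs replicate 1 for 15 members and by AMI/Placebo replicate 3 for 7. The groups therefore overlapped for nearly every member, and the order of the group means, AMI/S-endMSCs* above AMI/Placebo above AMI/S-endMSCs, was the same for 23 members. In bulk tissue, fewer cardiomyocytes and less RNA per cardiomyocyte cannot be told apart.

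**Figure D1:**
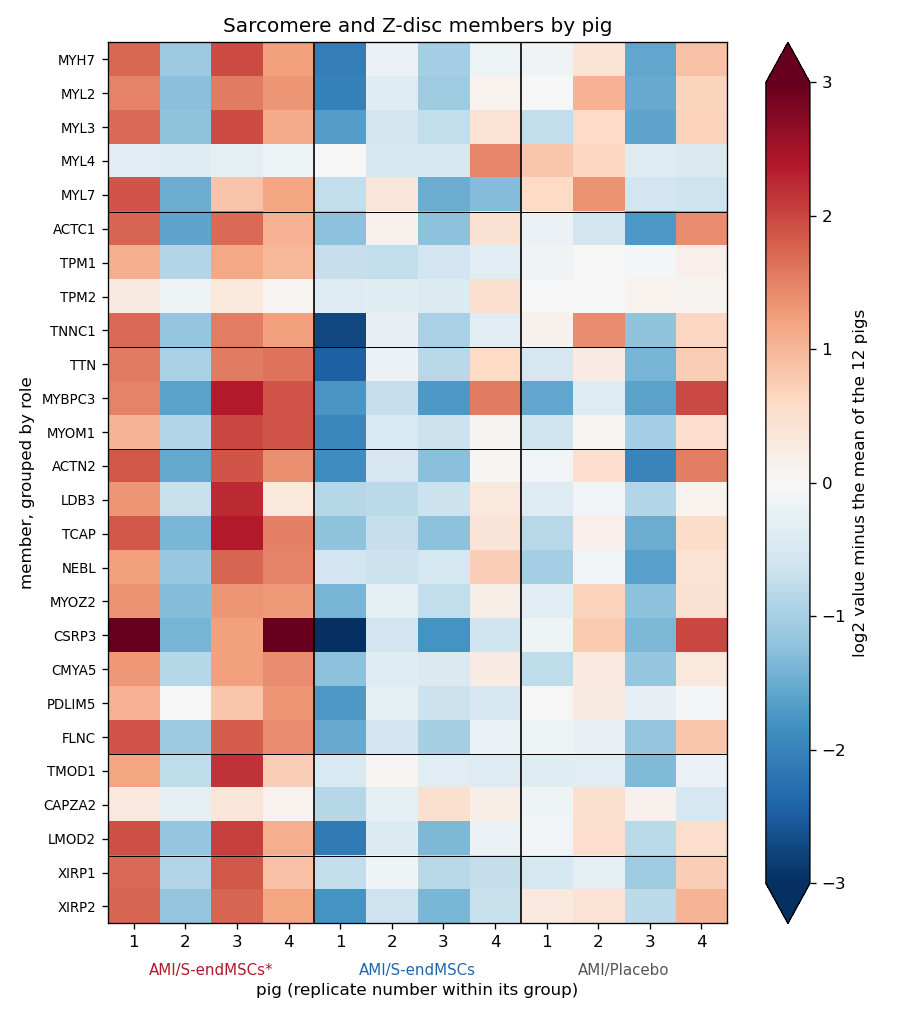
Heat map of the 26 members (rows, grouped by role) in the 12 pigs (columns, by group and replicate), coloured by the log2 value minus the mean of that member over the 12 pigs. AMI/S-endMSCs* replicates 1, 3 and 4 are red for nearly every member. Blue for nearly every member are AMI/S-endMSCs* replicate 2, AMI/S-endMSCs replicates 1, 2 and 3 and AMI/Placebo replicate 3.

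Between AMI/S-endMSCs* and AMI/Placebo, 25 of the 26 members had a positive log2 fold change, with a median of 1.01 (2.01-fold), beside a median of 0.01 over the 10912 genes. With limma, 7 members (26.9%) were called higher at an unadjusted p under 0.05, beside 1.95% of all genes, and 0 were called lower, beside 1.28%. They were TMOD1, PDLIM5, NEBL, XIRP1, LDB3, CMYA5 and TCAP, of which 5 are Z-disc proteins. The groups overlapped for all 26 members, while 1.11% of all genes were higher in AMI/S-endMSCs* with no overlap. Leaving out AMI/S-endMSCs* replicate 2 took the count to 21 members, beside 4.28% of genes called higher, with a median log2 fold change of 1.68. The count fell to 1 without AMI/S-endMSCs* replicate 1, without AMI/S-endMSCs* replicate 3, without AMI/Placebo replicate 1 or without AMI/Placebo replicate 3, beside 1.32%, 1.33%, 1.37% and 1.12% of genes called higher in these fits. It was 2 without AMI/S-endMSCs* replicate 4 (1.77% of genes), 4 without AMI/S-endMSCs replicate 2 (1.81%) and 3 without AMI/S-endMSCs replicate 3 (218 of 10912 genes).

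Between AMI/S-endMSCs and AMI/Placebo, 24 members had a negative log2 fold change, with a median of -0.47 (0.724-fold), beside 0.01 over all genes. Only XIRP2 and PDLIM5 (7.69%) were called lower, beside 1.83% of all genes, and 0 members were called higher, beside 2.60%. PDLIM5 and TPM1 were lower in AMI/S-endMSCs with no overlap, as were 0.971% of all genes. The count of calls was 0 without AMI/S-endMSCs replicate 1, beside 0.926% of genes called lower, and 0 without AMI/Placebo replicate 1, 2 or 4, beside 1.14%, 1.10% and 5.59% of genes. It was 1 without AMI/S-endMSCs replicate 3, beside 4.70% of genes, and 4 without AMI/Placebo replicate 3, beside 1.82%. Without AMI/S-endMSCs* replicate 2, which enters only through the shared estimate of the spread, 6 were called lower, beside 2.05% of genes. The median was -0.16 without AMI/S-endMSCs replicate 1, -0.77 without AMI/Placebo replicate 3, -0.73 without AMI/S-endMSCs replicate 4 and -0.27 without AMI/Placebo replicate 4.

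The widest gap was between AMI/S-endMSCs* and AMI/S-endMSCs. There, 25 members had a positive log2 fold change, with a median of 1.55 (2.94-fold), beside -0.02 over all genes. limma called 18 members (69.2%) higher, beside 4.81% of all genes, and 0 lower, beside 2.47%. PDLIM5 alone showed no overlap between these groups, as did 1.79% of all genes in the same direction. The count was 8 without AMI/S-endMSCs* replicate 1, without AMI/S-endMSCs* replicate 3 or without AMI/S-endMSCs replicate 1, beside 3.48%, 2.99% and 3.13% of genes called higher in these fits. It was 11 without AMI/S-endMSCs* replicate 4 or without AMI/S-endMSCs replicate 3, beside 4.80% and 6.43% of genes. Both treated groups are compared with the same AMI/Placebo pigs and with each other, so the 3 comparisons are not independent.

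After Benjamini-Hochberg adjustment over the 27558 probe sets, limma called 0 members and 0 probe sets in each comparison. An unadjusted p under 0.05 was reached by 925 probe sets in AMI/S-endMSCs* against AMI/Placebo, 1420 in AMI/S-endMSCs against AMI/Placebo and 2020 in AMI/S-endMSCs* against AMI/S-endMSCs. The smallest adjusted p among the members was 1 for AMI/S-endMSCs* against AMI/Placebo, 0.857 for AMI/S-endMSCs against AMI/Placebo and 0.552 for AMI/S-endMSCs* against AMI/S-endMSCs. Without AMI/S-endMSCs* replicate 2, 7 members passed the adjustment in AMI/S-endMSCs* against AMI/S-endMSCs, among 84 probe sets. They were TPM1, XIRP2, FLNC, PDLIM5, LMOD2, XIRP1 and TCAP, with adjusted p between 0.021 and 0.0495. In AMI/S-endMSCs* against AMI/Placebo, 0 members passed without that pig, and the smallest adjusted p was 0.127. Leaving out any other pig gave 0 members past the adjustment in any comparison.

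**Figure D2:**
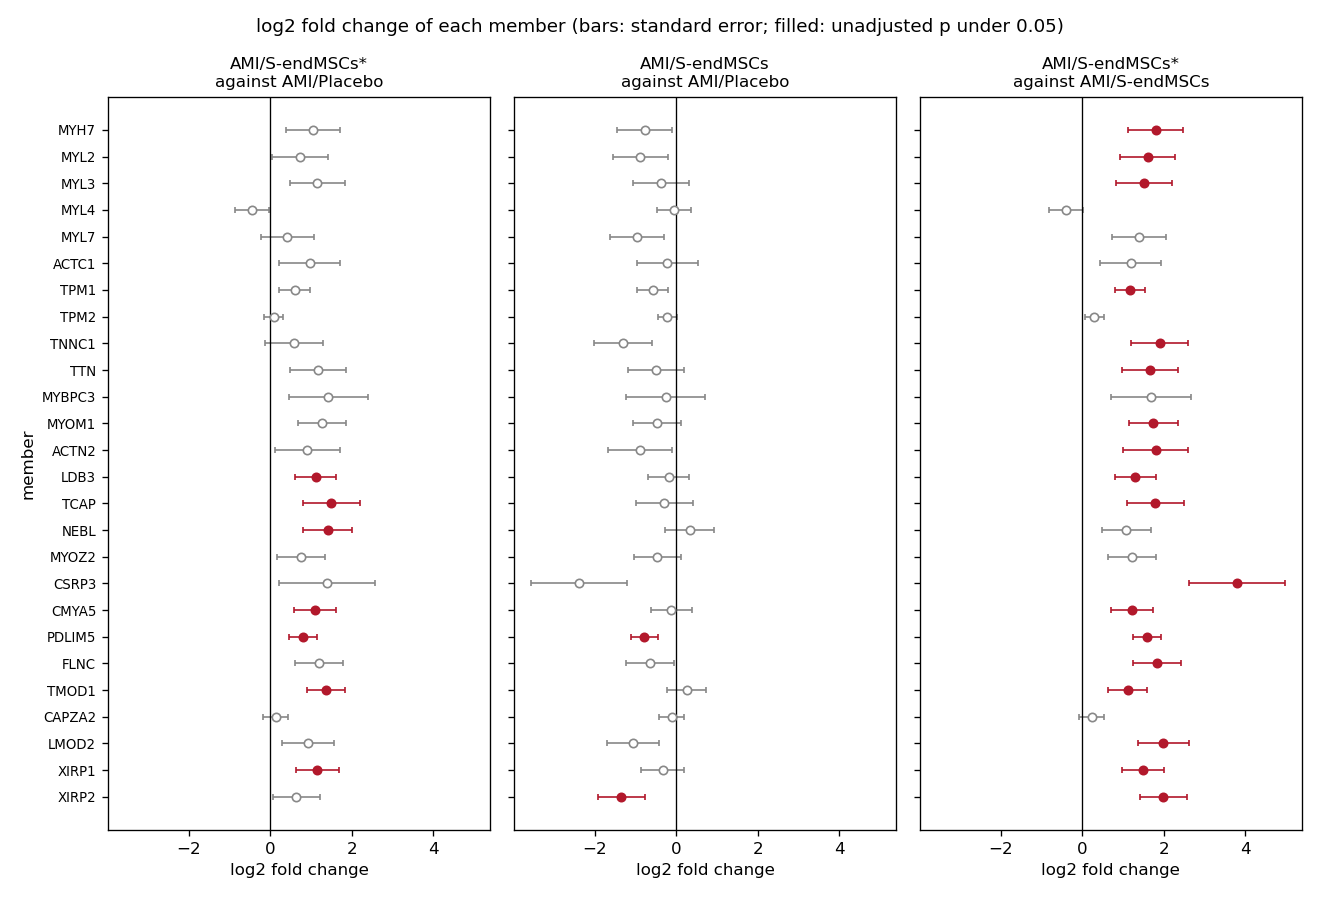
log2 fold change of each member in the 3 comparisons (points), with its standard error (bars), and filled where the unadjusted p was under 0.05. Of 26 members, 7 are filled in AMI/S-endMSCs* against AMI/Placebo, 2 in AMI/S-endMSCs against AMI/Placebo and 18 in AMI/S-endMSCs* against AMI/S-endMSCs.

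Of the 18 calls between AMI/S-endMSCs* and AMI/S-endMSCs, 8 held whichever pig was left out: PDLIM5, XIRP2, CSRP3, TPM1, LMOD2, FLNC, MYOM1 and XIRP1. MYH7 and TNNC1 were not called without AMI/S-endMSCs* replicate 1 or 3 or without AMI/S-endMSCs replicate 1, with log2 fold changes down to 1.41 and 1.35. MYL2, TTN, ACTN2, TCAP and CMYA5 were lost without the same pigs and without AMI/S-endMSCs* replicate 4 or AMI/S-endMSCs replicate 3, with log2 fold changes down to 1.22, 1.09, 1.47, 1.36 and 0.96. The call of LDB3 needed AMI/S-endMSCs* replicates 1 and 3 and AMI/S-endMSCs replicates 1 and 2, with a lowest value of 0.82. MYL3 was lost without AMI/S-endMSCs* replicate 1, 3 or 4 or AMI/S-endMSCs replicate 1, 2 or 3, with a lowest value of 1.17. TMOD1 was lost without AMI/S-endMSCs* replicate 1, 3 or 4 or AMI/S-endMSCs replicate 1, 3 or 4, with a lowest value of 0.67.

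Of the 7 calls between AMI/S-endMSCs* and AMI/Placebo, that of TMOD1 held whichever pig was left out. Without AMI/S-endMSCs* replicate 1 or 3, or AMI/Placebo replicate 1 or 3, each of the other 6 was lost. NEBL, PDLIM5, CMYA5, TCAP and XIRP1 were also lost without AMI/S-endMSCs* replicate 4. The lowest log2 fold changes were 1.06 for NEBL, 0.63 for PDLIM5, 0.83 for CMYA5, 1.08 for TCAP, 0.84 for XIRP1 and 0.64 for LDB3, so that the direction was the same with every pig left out.

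**Figure D3:**
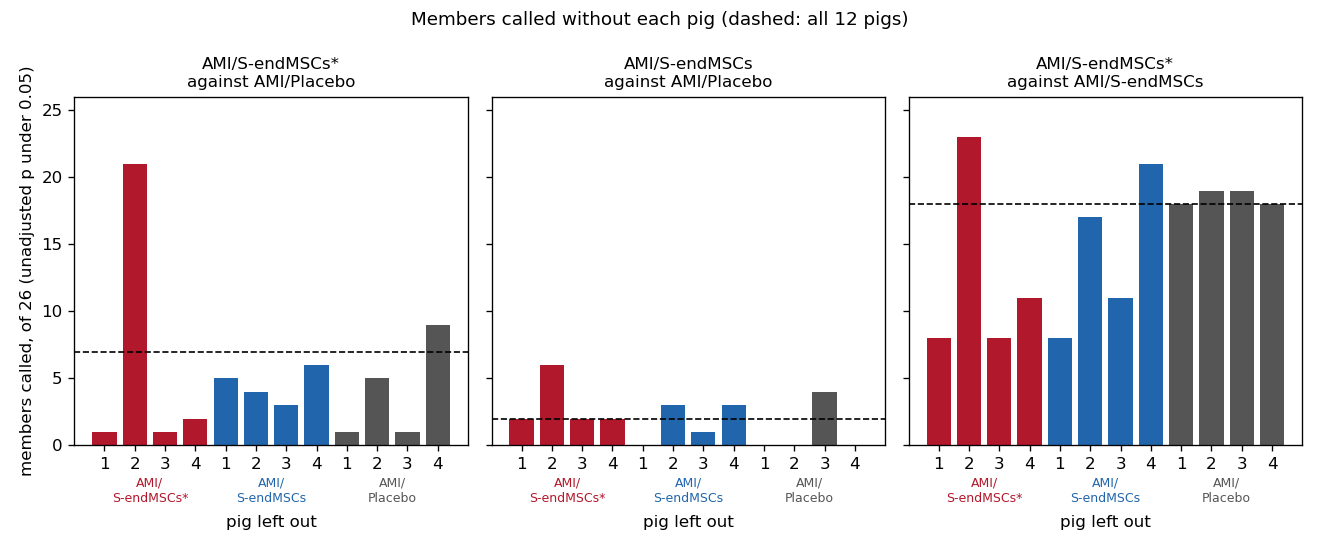
Number of the 26 members called at an unadjusted p under 0.05 (bars) when each pig was left out in turn, in the 3 comparisons, with the count from all 12 pigs as a dashed line. Without AMI/S-endMSCs* replicate 2 the count was 21 in AMI/S-endMSCs* against AMI/Placebo, beside 4.28% of all genes called higher. It was 6 in AMI/S-endMSCs against AMI/Placebo, beside 2.05% called lower. In AMI/S-endMSCs* against AMI/S-endMSCs it was 23, beside 6.09% called higher.

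Of the thick filament genes, the 3 ventricular forms were called between AMI/S-endMSCs* and AMI/S-endMSCs, and the atrial light chains were not. Log2 values below are given for replicates 1 to 4 of each group. MYH7, the beta-myosin heavy chain and motor of the ventricle, had 11.68, 8.87, 11.93 and 11.20 in AMI/S-endMSCs*, 7.88, 9.78, 8.94 and 9.82 in AMI/S-endMSCs and 9.86, 10.38, 8.40 and 10.85 in AMI/Placebo. AMI/S-endMSCs* replicates 1, 3 and 4 lay above all other pigs, and replicate 2 of that group was among the lowest, so that the groups overlapped. MYH7 was higher in AMI/S-endMSCs* than in AMI/S-endMSCs by 1.81 ± 0.674 (SE; 3.52-fold, unadjusted p 0.0176), and differed from AMI/Placebo by 1.05 in AMI/S-endMSCs* (p 0.143) and by -0.77 in AMI/S-endMSCs (p 0.274).

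MYL2, the ventricular regulatory light chain of myosin, had 11.76, 9.03, 11.83 and 11.61 in AMI/S-endMSCs*, 8.26, 9.91, 9.22 and 10.39 in AMI/S-endMSCs and 10.30, 11.31, 8.77 and 10.94 in AMI/Placebo. The pattern over pigs was that of MYH7, with AMI/S-endMSCs* replicate 2 below 3 of the 4 AMI/Placebo pigs. It was called between AMI/S-endMSCs* and AMI/S-endMSCs, at 1.61 ± 0.676 (SE, p 0.0321), as was MYL3, the ventricular essential light chain, at 1.52 ± 0.681 (p 0.0424). MYL3 ranged from 5.51 to 9.11 over the pigs, a span of 12.1-fold.

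The atrial light chains were not called in any comparison. MYL4, the atrial and fetal essential light chain, had 2.08, 2.03, 2.10 and 2.26 in AMI/S-endMSCs*, 2.39, 1.86, 1.92 and 3.86 in AMI/S-endMSCs and 3.24, 3.03, 2.04 and 1.96 in AMI/Placebo. Its values near 2 lie below the middle of the array, with AMI/S-endMSCs replicate 4 and AMI/Placebo replicates 1 and 2 above the rest. It was the only member with a negative log2 fold change for AMI/S-endMSCs* against AMI/Placebo, -0.45 ± 0.415 (SE, p 0.297), and against AMI/S-endMSCs, -0.39 (p 0.365), and neither passed the test. MYL7, the atrial regulatory light chain, ranged from 2.19 in AMI/S-endMSCs* replicate 2 to 5.56 in AMI/S-endMSCs* replicate 1. Its log2 fold change was 1.39 ± 0.659 (SE; 2.62-fold, p 0.0535) for AMI/S-endMSCs* against AMI/S-endMSCs, just short of the threshold, and -0.97 (p 0.164) for AMI/S-endMSCs against AMI/Placebo, of the same signs as those of MYL2, which were 1.61 and -0.88.

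The difference between ventricular and atrial light chains within each pig was compared between the groups. MYL3 minus MYL4 averaged 5.93 ± 1.40 in AMI/S-endMSCs*, 4.02 ± 0.733 in AMI/S-endMSCs and 4.33 ± 1.23 in AMI/Placebo (SD, n = 4). The exact permutation test (two-sided) gave p 0.0857 for AMI/S-endMSCs* against AMI/S-endMSCs and p 0.114 against AMI/Placebo. Since MYL4 lay below the middle of the array in most pigs, this difference follows mostly the level of MYL3 and does not show that the chains moved by unequal amounts. MYL2 minus MYL7 averaged 6.77 ± 0.447 in AMI/S-endMSCs*, 6.55 ± 1.20 in AMI/S-endMSCs and 6.46 ± 0.982 in AMI/Placebo, with exact p between 0.6 and 0.914. MYL7 lay below the middle of the array in AMI/S-endMSCs* replicate 2 (2.19) and AMI/S-endMSCs replicates 3 (2.20) and 4 (2.39). The MYL2 minus MYL7 difference therefore does not show that these chains moved by equal amounts. With 4 pigs against 4 the smallest p the exact permutation test allows is 0.0286, and the 9 tests of this kind were adjusted together.

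Of the thin filament genes, TPM1 and TNNC1 were called between AMI/S-endMSCs* and AMI/S-endMSCs, and TPM2 was the steadiest of all members. TNNC1, the calcium-binding troponin C of cardiac and slow muscle, had 11.15, 8.30, 10.99 and 10.69 in AMI/S-endMSCs*, 6.73, 9.20, 8.47 and 9.14 in AMI/S-endMSCs and 9.58, 10.88, 8.24 and 10.08 in AMI/Placebo. AMI/S-endMSCs replicate 1 was lowest, and AMI/Placebo replicate 2 lay among the high AMI/S-endMSCs* pigs. Its log2 fold change was 1.90 ± 0.707 (SE; 3.73-fold, p 0.0179) for AMI/S-endMSCs* against AMI/S-endMSCs, 0.59 (p 0.42) for AMI/S-endMSCs* against AMI/Placebo and -1.31 (p 0.085) for AMI/S-endMSCs against AMI/Placebo.

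TPM1, the alpha-tropomyosin that lies along actin and blocks or opens it to myosin, had 9.29, 7.32, 9.35 and 9.18 in AMI/S-endMSCs*, 7.49, 7.46, 7.61 and 7.87 in AMI/S-endMSCs and 8.09, 8.17, 8.13 and 8.35 in AMI/Placebo. The values within AMI/S-endMSCs and within AMI/Placebo were close, and every AMI/S-endMSCs pig lay below every AMI/Placebo pig. That difference, -0.58 ± 0.373 (SE), was not called (p 0.145) with the spread of all 3 groups, whose SD was 0.981 in AMI/S-endMSCs*, 0.188 in AMI/S-endMSCs and 0.116 in AMI/Placebo, and had p 0.0127 without AMI/S-endMSCs* replicate 2. Against AMI/S-endMSCs, TPM1 was higher in AMI/S-endMSCs* by 1.18 (2.26-fold, p 0.00718).

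TPM2, the beta-tropomyosin, had 8.13, 7.74, 8.17 and 7.91 in AMI/S-endMSCs*, 7.46, 7.49, 7.45 and 8.33 in AMI/S-endMSCs and 7.86, 7.84, 7.97 and 7.95 in AMI/Placebo. Its standard deviation over the pigs, 0.284, was the smallest of the members, and AMI/S-endMSCs replicate 4 stood apart from the other pigs of its group. TPM2 also has a role in smooth muscle and non-muscle cells, and it was not called in any comparison. TPM1 minus TPM2 averaged 0.80 ± 0.815 in AMI/S-endMSCs*, -0.08 ± 0.265 in AMI/S-endMSCs and 0.28 ± 0.103 in AMI/Placebo (SD, n = 4). For AMI/S-endMSCs against AMI/Placebo the exact permutation p was 0.0286, the smallest the test can give, and 0.257 after adjustment over the 9 tests.

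ACTC1, the cardiac alpha-actin of the thin filament, had 11.24, 7.91, 11.20 and 10.55 in AMI/S-endMSCs*, 8.28, 9.63, 8.28 and 9.95 in AMI/S-endMSCs and 9.33, 8.95, 7.79 and 10.93 in AMI/Placebo. AMI/Placebo replicate 4 was as high as the high AMI/S-endMSCs* pigs, and AMI/S-endMSCs* replicate 2 was below every AMI/S-endMSCs pig. ACTC1 was not called in any comparison, with 1.19 ± 0.751 (SE, p 0.136) for AMI/S-endMSCs* against AMI/S-endMSCs. A dimmer probe set of ACTC1 had 1.81 in that comparison (p 0.047).

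Titin and the M-band genes followed the same course. TTN, the elastic giant that sets the resting tension of the sarcomere, had 10.53, 8.01, 10.52 and 10.60 in AMI/S-endMSCs*, 6.53, 8.79, 8.14 and 9.57 in AMI/S-endMSCs and 8.48, 9.22, 7.58 and 9.70 in AMI/Placebo. AMI/S-endMSCs* replicates 1, 3 and 4 lay within a narrow band above all other pigs, and replicate 2 lay below 3 of the 4 pigs of each of the other groups. TTN was called between AMI/S-endMSCs* and AMI/S-endMSCs, at 1.66 ± 0.690 (SE, p 0.0305). A probe set of TTN with a mean of 2.24, below the middle of the array, had -0.28 there (p 0.52).

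MYOM1, myomesin, which crosslinks thick filaments at the M-band, had 6.10, 4.20, 7.08 and 6.96 in AMI/S-endMSCs*, 3.13, 4.63, 4.43 and 5.15 in AMI/S-endMSCs and 4.48, 5.13, 4.06 and 5.58 in AMI/Placebo. The high and low pigs were those of TTN. It was higher in AMI/S-endMSCs* than in AMI/S-endMSCs by 1.75 ± 0.593 (SE; 3.36-fold, p 0.0107), and by 1.27 than in AMI/Placebo at p 0.0501, just short of the threshold. MYBPC3, the cardiac myosin binding protein C that tunes crossbridge cycling, ranged from 4.08 to 8.20 and was not called, with AMI/S-endMSCs replicate 4, at 7.40, and AMI/Placebo replicate 4, at 7.82, among its high pigs.

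The Z-disc proteins were the role with the most measured members. Of these 9, 5 were called higher in AMI/S-endMSCs* than in AMI/Placebo, beside 1.95% of all genes. In AMI/S-endMSCs against AMI/Placebo, 1 was called lower, beside 1.83%. In AMI/S-endMSCs* against AMI/S-endMSCs, 7 were called higher, beside 4.81%. PDLIM5, a PDZ and LIM protein that brings signalling enzymes to the Z-disc, had 7.65, 6.62, 7.45 and 7.94 in AMI/S-endMSCs*, 4.89, 6.33, 5.98 and 6.11 in AMI/S-endMSCs and 6.63, 6.88, 6.37 and 6.55 in AMI/Placebo. Every AMI/S-endMSCs pig was below every pig of the other groups, and AMI/S-endMSCs* overlapped AMI/Placebo only through its replicate 2.

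PDLIM5 was the only member called in all 3 comparisons, and 68.4% of its variance over the pigs lay between the groups, the most of any member. Its log2 fold change was 1.59 ± 0.338 (SE, p 3.54e-04) for AMI/S-endMSCs* against AMI/S-endMSCs. It was 0.81 (1.75-fold, p 0.0318) for AMI/S-endMSCs* against AMI/Placebo and -0.78 (0.582-fold, p 0.037) for AMI/S-endMSCs against AMI/Placebo. The first of these calls held under every alternative tried, while the calls against AMI/Placebo were lost when some pigs were left out. AMI/S-endMSCs* against AMI/Placebo lost it without replicate 1, 3 or 4 of AMI/S-endMSCs* or without replicate 1, 3 or 4 of AMI/Placebo. AMI/S-endMSCs against AMI/Placebo lost it without AMI/S-endMSCs replicate 1 or without replicate 1, 2 or 4 of AMI/Placebo, with log2 fold changes from -0.95 to -0.47 over all pigs left out.

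CSRP3, the muscle LIM protein of the Z-disc, varied most. It had 12.09, 6.70, 9.32 and 11.17 in AMI/S-endMSCs*, 2.82, 7.51, 6.30 and 7.49 in AMI/S-endMSCs and 7.95, 8.87, 6.74 and 10.09 in AMI/Placebo, with a standard deviation of 2.47 over the pigs. AMI/S-endMSCs replicate 1 was far below all other pigs, close to the middle of the array. CSRP3 was higher in AMI/S-endMSCs* than in AMI/S-endMSCs by 3.79 ± 1.18 (SE, p 0.00631), and by 2.72 without AMI/S-endMSCs replicate 1. Its other probe set spanned 4.25 to 9.47 and gave 2.30 (p 0.0111), and leaving out each pig in turn gave 2.72 to 4.83 for the first.

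ACTN2, the alpha-actinin that ties thin filaments together at the Z-disc, had 8.36, 4.95, 8.37 and 7.88 in AMI/S-endMSCs*, 4.63, 5.99, 5.24 and 6.53 in AMI/S-endMSCs and 6.40, 7.00, 4.52 and 8.02 in AMI/Placebo. AMI/Placebo replicate 4 lay within the range of the high AMI/S-endMSCs* pigs, and AMI/Placebo replicate 3 was the lowest of all. The difference between AMI/S-endMSCs* and AMI/S-endMSCs was 1.80 ± 0.794 (SE, p 0.0403).

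FLNC, filamin C, a muscle crosslinker of actin at the Z-disc and the cell membrane, had 7.33, 4.37, 7.26 and 6.88 in AMI/S-endMSCs*, 3.93, 4.87, 4.45 and 5.24 in AMI/S-endMSCs and 5.30, 5.22, 4.27 and 6.29 in AMI/Placebo. LDB3, the Z-disc adaptor also called ZASP or Cypher, had 4.93, 2.93, 5.84 and 3.92 in AMI/S-endMSCs*, 2.75, 2.80, 2.95 and 3.92 in AMI/S-endMSCs and 3.21, 3.52, 2.72 and 3.71 in AMI/Placebo. For FLNC, replicates 1, 3 and 4 of AMI/S-endMSCs* lay above all other pigs, while for LDB3 replicate 4 was level with AMI/S-endMSCs replicate 4. FLNC was called between AMI/S-endMSCs* and AMI/S-endMSCs, at 1.84 ± 0.593 (SE; 3.57-fold, p 0.00791). LDB3 was called there, at 1.30 ± 0.505 (p 0.0222), and against AMI/Placebo, at 1.12 (p 0.0444).

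The other Z-disc members were TCAP, CMYA5, NEBL and MYOZ2. TCAP, telethonin, which caps the end of titin in the Z-disc, ranged from 4.07 to 7.93 and was called in AMI/S-endMSCs* against AMI/Placebo, at 1.50 (p 0.0499), and against AMI/S-endMSCs, at 1.79 (p 0.023). CMYA5, myospryn, ranged from 6.40 to 9.06 and was called in the same comparisons, at 1.10 (p 0.048) and 1.22 (p 0.0305). NEBL, nebulette, a cardiac actin-binding protein of the Z-disc, ranged from 7.56 to 10.93 and was called against AMI/Placebo only, at 1.41 (p 0.0344). MYOZ2, a Z-disc protein that binds calcineurin, ranged from 8.39 to 11.12 and was not called, with 1.22 (p 0.0581) for AMI/S-endMSCs* against AMI/S-endMSCs. Its second probe set gave 1.48 there (p 0.0392).

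At the ends of the thin filaments, TMOD1 and LMOD2 were called and CAPZA2 was not. TMOD1, tropomodulin, which caps the end of the filament that points away from the Z-disc, had 5.56, 3.62, 6.56 and 5.13 in AMI/S-endMSCs*, 3.93, 4.41, 4.06 and 3.99 in AMI/S-endMSCs and 4.02, 4.08, 3.06 and 4.20 in AMI/Placebo. AMI/S-endMSCs* replicates 1, 3 and 4 stood above all other pigs, and the pigs of the other groups lay close together apart from AMI/Placebo replicate 3. TMOD1 had the smallest p of the members for AMI/S-endMSCs* against AMI/Placebo, 0.0121, at 1.37 ± 0.476 (SE; 2.59-fold), and this call held when each pig was left out in turn, with 0.93 to 1.91. Against AMI/S-endMSCs it was higher by 1.12 (p 0.0343).

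LMOD2, leiomodin, which lengthens thin filaments at the same end, had 7.93, 4.84, 8.05 and 7.09 in AMI/S-endMSCs*, 3.89, 5.59, 4.66 and 5.84 in AMI/S-endMSCs and 5.93, 6.53, 5.21 and 6.53 in AMI/Placebo. AMI/S-endMSCs* replicate 2 was below all AMI/Placebo pigs and above 2 of the 4 AMI/S-endMSCs pigs. LMOD2 was higher in AMI/S-endMSCs* than in AMI/S-endMSCs by 1.99 ± 0.632 (SE; 3.97-fold, p 0.00721). CAPZA2, a subunit of the capping protein that many cell types use at the other end of actin filaments, ranged only from 5.18 to 6.53. Just 5.75% of its variance lay between the groups, the least of any member.

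The Xin proteins, which bind actin where heart muscle cells join at the intercalated disc, were called in several comparisons. XIRP2 had 8.02, 5.09, 8.01 and 7.45 in AMI/S-endMSCs*, 4.47, 5.64, 4.89 and 5.59 in AMI/S-endMSCs and 6.55, 6.70, 5.48 and 7.29 in AMI/Placebo. Of the AMI/S-endMSCs pigs, 2 lay below every AMI/Placebo pig and the others between the lowest of them and the next. XIRP2 fell in AMI/S-endMSCs against AMI/Placebo, by 1.35 ± 0.580 on the log2 scale (SE; 0.391-fold, p 0.0351), and was higher in AMI/S-endMSCs* than in AMI/S-endMSCs by 1.99 (3.98-fold, p 0.00406). The first of these calls was lost without AMI/S-endMSCs replicate 1 or 3, or without AMI/Placebo replicate 1, 2 or 4, with -1.70 to -1.09 over all pigs left out.

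XIRP1 had 4.94, 2.37, 5.12 and 4.12 in AMI/S-endMSCs*, 2.52, 3.12, 2.42 and 2.53 in AMI/S-endMSCs and 2.72, 2.99, 2.19 and 3.99 in AMI/Placebo. Outside AMI/S-endMSCs* replicates 1, 3 and 4 and AMI/Placebo replicate 4, its values lay near the middle of the array. It was called in AMI/S-endMSCs* against AMI/S-endMSCs, at 1.49 ± 0.523 (SE, p 0.0129), and against AMI/Placebo, at 1.16 (p 0.0434).

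**Figure D4:**
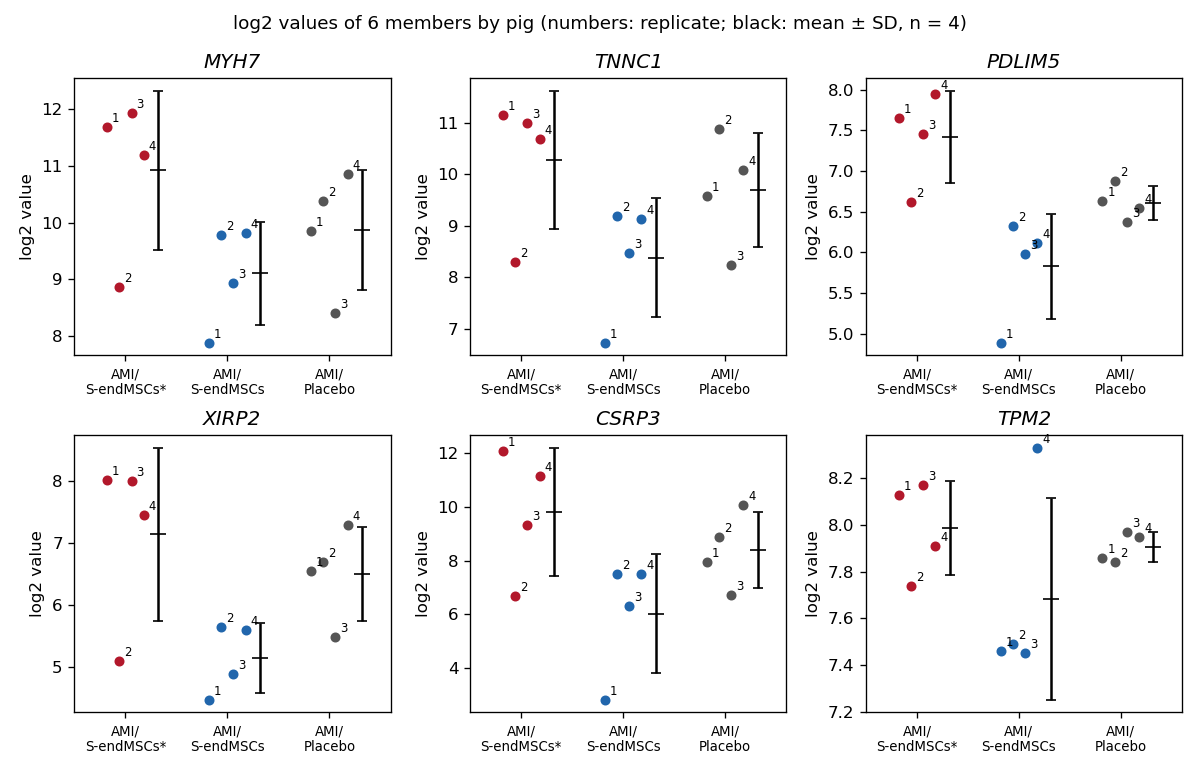
log2 values of MYH7, TNNC1, PDLIM5, XIRP2, CSRP3 and TPM2 (vertical axes) in each pig (points, numbered by replicate), with the mean ± SD of each group (n = 4). AMI/S-endMSCs* replicate 2 is the lowest pig of its group in all 6 panels, and AMI/S-endMSCs lies wholly below AMI/S-endMSCs* only for PDLIM5.

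Markers of heart muscle outside the sarcomere moved with the members. The mean of 12 such markers, relative to its mean over the pigs, was 1.23, -0.80, 1.48 and 1.0 in AMI/S-endMSCs* replicates 1 to 4. It was -1.09, -0.43, -0.65 and -0.05 in AMI/S-endMSCs and -0.15, 0.30, -1.0 and 0.16 in AMI/Placebo. The low pigs were thus those in which the members were low. Of the 12 markers, 2 were called higher in AMI/S-endMSCs* against AMI/Placebo, FABP3 and RBM20, and 5 in AMI/S-endMSCs* against AMI/S-endMSCs, CKMT2, RYR2, ATP2A2, PLN and CASQ2, beside 1.95% and 4.81% of all genes.

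With the mean of these 12 markers as a covariate, the median log2 fold change of the members was -0.18 for AMI/S-endMSCs* against AMI/Placebo, 0.00 for AMI/S-endMSCs against AMI/Placebo and -0.10 for AMI/S-endMSCs* against AMI/S-endMSCs. The median standard error of a member fell to 0.326, 0.290 and 0.365 in these comparisons, against 0.597 without the covariate. Of the 18 members called between AMI/S-endMSCs* and AMI/S-endMSCs, PDLIM5 alone was still called, at 0.92 ± 0.349 (SE, p 0.0206), beside 2.30% of all genes. Of the 7 called between AMI/S-endMSCs* and AMI/Placebo, 0 were, and MYL2 was called lower, at -0.64 (p 0.0393), beside 1.62% of genes. Between AMI/S-endMSCs and AMI/Placebo, XIRP2, at -0.86 (p 0.00314), and TNNC1, at -0.73 (p 0.0443), were called lower, and NEBL, at 0.82 (p 0.0162), and TMOD1, at 0.62 (p 0.0483), higher, beside 4.12% of genes. With the covariate, 4 members were thus called in this comparison, against 2 without it.

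Other cell types also differed between pigs. The mean of 13 macrophage and monocyte markers was -0.91, 0.54, -0.44 and -1.23 in AMI/S-endMSCs* replicates 1 to 4, between -0.07 and 0.44 in AMI/S-endMSCs and between -0.52 and 0.64 in AMI/Placebo. AMI/S-endMSCs* replicate 2 was the only pig of its group with a positive value, and 4 of the 13 markers, AIF1, C1QB, TYROBP and FCER1G, were called lower in AMI/S-endMSCs* than in AMI/Placebo, beside 1.28% of all genes. Of 6 neutrophil markers, only 2 lay above the middle of the array. The mean of the 6 was 0.68 in AMI/S-endMSCs* replicate 2, against -0.83 to -0.51 in the other pigs of that group. It was 0.80 in AMI/Placebo replicate 3, the highest of all. The mean of 15 fibroblast and scar matrix markers ran from -1.45 to 0.56 in AMI/S-endMSCs*, from -1.06 to 0.50 in AMI/S-endMSCs and from -0.48 to 0.72 in AMI/Placebo. It was lowest in AMI/S-endMSCs* replicate 4 and AMI/S-endMSCs replicate 1, of which the members were high in one and low in the other. The mean of 11 skeletal muscle markers stayed between -0.31 and 0.32 in all pigs. Lists of smooth muscle, lymphocyte, endothelial, red blood cell, adipocyte and mesothelial markers stayed between -0.59 and 0.45, and atrial markers outside the sarcomere between -0.56 and 1.37, highest in AMI/S-endMSCs* replicate 1. Single markers of these lists were called. In AMI/S-endMSCs* against AMI/Placebo, ACTA2 and TAGLN were lower, beside 1.28% of all genes, and LPL higher, beside 1.95%. Against AMI/S-endMSCs, ACTA2 was lower, beside 2.47%, and FLT1, LPL, PAM and TBX5 higher, beside 4.81%. KDR was lower in AMI/S-endMSCs against AMI/Placebo, beside 1.83%. The part of these cell types in the members' values was not tested. The cardiomyocyte covariate was measured on the same arrays and moved with the members. Its fits therefore cannot separate the number of cardiomyocytes from the RNA per cardiomyocyte.

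**Figure D5:**
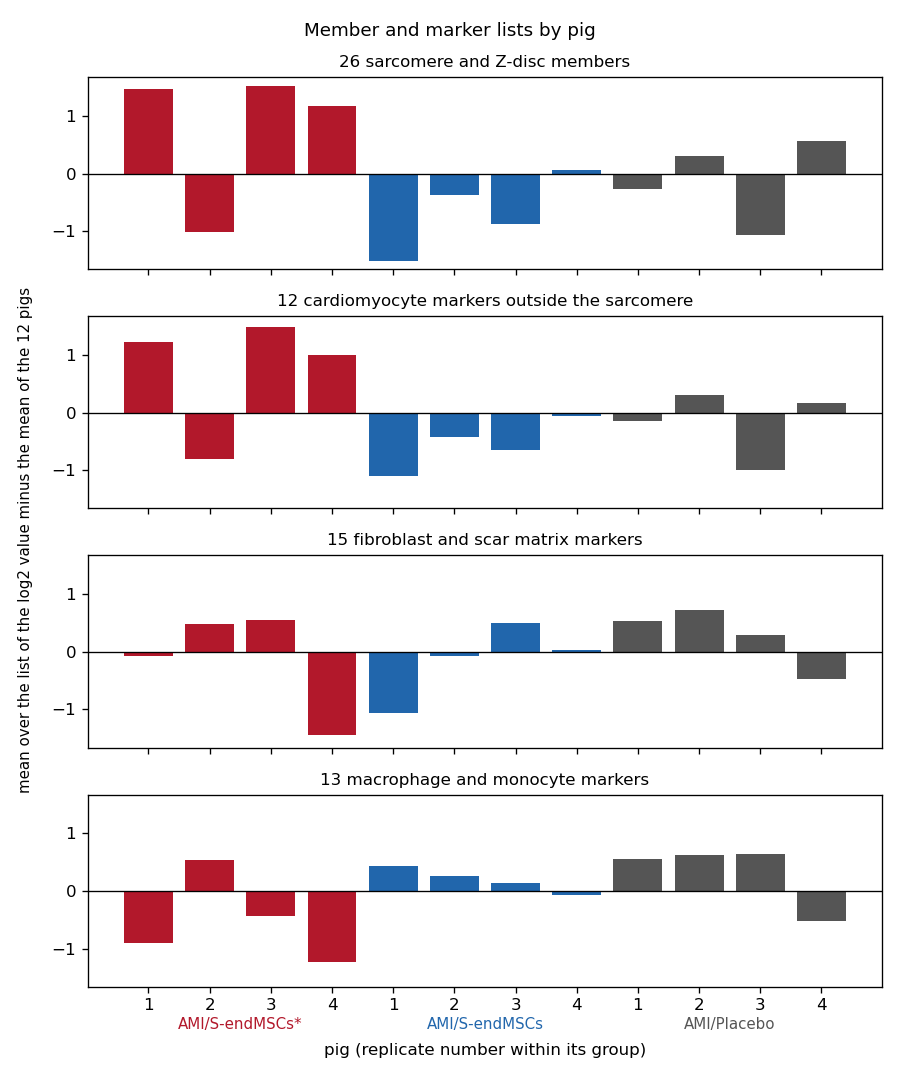
Mean over each list of the log2 value minus the mean of the 12 pigs (bars), for the 26 members, 12 cardiomyocyte markers outside the sarcomere, 15 fibroblast and scar matrix markers and 13 macrophage and monocyte markers, in each pig. The cardiomyocyte markers have the signs of the members in 11 of 12 pigs, while the macrophage markers are positive in AMI/S-endMSCs* replicate 2 and negative in the other 3 pigs of its group.

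Further genes of the sarcomere and Z-disc had smaller medians, as a list, than the members. The list differs in make-up, since it holds skeletal muscle markers with means below the middle of the array. Examples are MYH1, at 2.01, and MYLPF, at 2.09, so the medians do not compare like genes. Of 64 listed, 40 were measured, and their median log2 fold change was 0.43 for AMI/S-endMSCs* against AMI/Placebo, -0.14 for AMI/S-endMSCs against AMI/Placebo and 0.68 for AMI/S-endMSCs* against AMI/S-endMSCs. Against AMI/Placebo, NEB, PDLIM3, BAG3 and UNC45B were called higher in AMI/S-endMSCs*, and FHL3 and CAPN3 lower, beside 1.95% and 1.28% of all genes. AMI/S-endMSCs against AMI/Placebo gave a single call, MYBPHL, higher at 0.49 (p 0.0475), beside 2.60% of all genes called higher. Its mean over the pigs, 2.01, lay below the middle of the array. Between AMI/S-endMSCs* and AMI/S-endMSCs, 12 of the 40 were called higher, beside 4.81% of all genes. CAPN3 alone was called lower, beside 2.47%. Among the 12 were MYOT, a Z-disc protein (2.17, p 0.00917), ANKRD1, a stretch-responsive partner of titin (2.21, p 0.011), and SMYD1 and UNC45B, which help myosin to fold and assemble (2.19, p 0.00915, and 2.55, p 0.00914).

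NEB, nebulin, a thin filament protein best known from skeletal muscle, had the smallest p of this list and was singled out after its values were seen. It had 6.72, 4.77, 8.13 and 7.63 in AMI/S-endMSCs*, 3.92, 4.38, 3.75 and 4.43 in AMI/S-endMSCs and 2.94, 3.87, 3.50 and 5.26 in AMI/Placebo. All AMI/S-endMSCs* pigs lay above all AMI/S-endMSCs pigs, replicate 2 included, as was so for 1.79% of all genes. No other gene of this list did so. Only AMI/Placebo replicate 4 reached into the AMI/S-endMSCs* range. The log2 fold change was 2.92 ± 0.621 (SE, p 3.49e-04, adjusted p 1) for AMI/S-endMSCs* against AMI/Placebo and 2.69 ± 0.621 (p 7.03e-04, adjusted p 0.552) for AMI/S-endMSCs* against AMI/S-endMSCs. AMI/S-endMSCs differed from AMI/Placebo by 0.23 (p 0.718). When each pig was left out in turn, the unadjusted p for AMI/S-endMSCs* against AMI/Placebo was at most 0.0017. As NEB was picked for its small p, these fits are not a separate test of it.

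Calcium handling genes, which release and take up the calcium that starts and ends each contraction, were followed as well. Of 20 listed, 11 were measured, with a median of 1.34 for AMI/S-endMSCs* against AMI/S-endMSCs. There, 8 of the 11 were called higher, beside 4.81% of all genes. Of these 8, RYR2, ATP2A2, PLN and CASQ2 also belong to the 12 cardiomyocyte markers above, so their calls are counted in both lists. RYR2, the calcium release channel, differed by 1.82 (p 0.035), ATP2A2, the calcium pump of the sarcoplasmic reticulum, by 1.19 (p 0.00361), and PLN, its inhibitor phospholamban, by 1.70 (p 0.00612). Against AMI/Placebo, JPH1 alone was called in AMI/S-endMSCs*, where the median was 0.80, and SYPL2 alone in AMI/S-endMSCs, where it was -0.48. Both were called higher, beside 1.95% and 2.60% of all genes. Their means over the pigs, 2.59 for JPH1 and 1.68 for SYPL2, lay below the middle of the array.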

How the data were processed

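Total RNA of 12 infarcted hearts was labelled and hybridised to Affymetrix porcine gene arrays, 1 per pig. The authors corrected the background, normalized between arrays and summarised probe sets by RMA in the package oligo (versions not stated), and the deposited values are on the log2 scale. Scan files were not used here, a genome build is not given in the sources used here, and 0 value columns were left unmapped. Groups and replicate numbers came from the titles of the samples. The probe table gave 1 symbol to 11982 of 27558 probe sets, several to 373 (not named here) and none to 15203. Where a gene has several probe sets, the brightest on average stands for it. Levels of different genes were set against each other only as differences of related genes within a pig. Levels were otherwise set against the middle of the array.

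limma 3.58.1 in R 4.3.3 fitted 1 mean per group to all 12 arrays (lmFit, eBayes), and calls were made at unadjusted p-values under 0.05, as in the paper. Benjamini-Hochberg adjustment ran over all probe sets. Python 3.11.15 and matplotlib 3.10.9 drew the figures, and the fit was tested on simulated data. Differences of related genes within a pig were tested by exact permutation over samples, for 3 of 6 planned pairs, since the other genes have no named probe set. All 12 values are given for the 12 members with the smallest p, for the main ventricular form of each role, for the members with the largest and the smallest standard deviation and for members of opposite sign, and NEB is an addition. Members, roles and marker lists were chosen with earlier results of these data known. No protein or promoter sequence was used here. Alternatives were other scalings, filters, moderation, array weights, samples, the replicate block, covariates and leaving out each pig. Each pig is 1 sample. The limma p-values set each difference of group means against the spread between pigs, pooled over the 3 groups and moderated over all probe sets. The number of arrays limits the precision.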

Additional observations from a re-analysis of the deposited data

Results flagged for a closer look

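In 12 of the 78 sets of 4 pigs (26 members in 3 groups), the highest or lowest pig stood apart, with a gap to its nearest neighbour so large a share of the range of the group that it passed the critical value of Dixon's test for 4 values. Chance gives about 1 in 20 such sets, and since the members vary together over the pigs, these are not 12 separate findings. In AMI/S-endMSCs*, 8 of them are replicate 2 lying low. Its log2 values were 9.03 for MYL2 (other pigs of the group 11.61 to 11.83), 7.32 for TPM1 (9.18 to 9.35), 8.30 for TNNC1 (10.69 to 11.15) and 8.01 for TTN (10.52 to 10.60). They were 4.95 for ACTN2 (7.88 to 8.37), 8.47 for MYOZ2 (11.05 to 11.12), 6.79 for CMYA5 (8.86 to 9.06) and 4.37 for FLNC (6.88 to 7.33).

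In AMI/S-endMSCs, replicate 4 stood high for TPM2, at 8.33 (others 7.45 to 7.49), and for NEBL, at 9.92 (8.56 to 8.67), and replicate 2 stood high for XIRP1, at 3.12 (2.42 to 2.53). In AMI/Placebo, replicate 3 stood low for TMOD1, at 3.06 (4.02 to 4.20).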

How the results depend on the processing

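With the mean of cardiomyocyte markers outside the sarcomere as a covariate, the median log2 fold change of the members turned to -0.18 for AMI/S-endMSCs* against AMI/Placebo and to -0.10 for AMI/S-endMSCs* against AMI/S-endMSCs. Between AMI/S-endMSCs* and AMI/S-endMSCs, MYH7 turned to -0.12, MYL2 to -0.34, MYL3 to -0.44, TNNC1 to -0.06, TTN to -0.21, ACTN2 to -0.48, TCAP to -0.22, CMYA5 to -0.17 and TMOD1 to -0.10, and 1 member was called. The 7 calls of AMI/S-endMSCs* against AMI/Placebo became 4 with median centring, 1 without moderation, 15 with array weights, 2 with only these groups in the fit and 4 with the interquartile range as covariate. With the cardiomyocyte covariate 0 members were called higher and 1, MYL2, lower. They became 3 with a fibroblast and scar marker covariate, which was chosen after seeing the data. The 2 calls of AMI/S-endMSCs against AMI/Placebo became 0 with quantile normalization, without moderation or with array weights, 5 with only these groups in the fit, 4 with the cardiomyocyte covariate (2 lower and 2 higher) and 1 with the interquartile range. The 18 calls of AMI/S-endMSCs* against AMI/S-endMSCs became 8 without moderation. Apart from the cardiomyocyte covariate, the share of all genes called under these settings, or with the replicate block, is not given here. These counts therefore cannot be set beside the calls over the whole array. The cause of these changes was not tested. With each pig left out in turn, the counts ran from 1 to 21, 0 to 6 and 8 to 23, and the medians from 0.68 to 1.68, -0.77 to -0.16 and 1.25 to 2.16 (AMI/S-endMSCs* against AMI/Placebo, AMI/S-endMSCs against AMI/Placebo, AMI/S-endMSCs* against AMI/S-endMSCs). MYL2 minus MYL7 was -0.10 in AMI/S-endMSCs against AMI/Placebo with quantile normalization. With pigs left out it ran from -0.40 to 0.56 there and from -0.19 to 0.70 in AMI/S-endMSCs* against AMI/S-endMSCs. MYL3 minus MYL4 ran from -0.69 to 0.22 in AMI/S-endMSCs against AMI/Placebo and from 1.55 to 2.58 in AMI/S-endMSCs* against AMI/S-endMSCs. TPM1 minus TPM2 ran from -0.43 to -0.23 in AMI/S-endMSCs against AMI/Placebo, from 0.36 to 0.92 in AMI/S-endMSCs* against AMI/Placebo and from 0.71 to 1.28 in AMI/S-endMSCs* against AMI/S-endMSCs. Same-numbered pigs of different groups had correlations of -0.184 to 0.397 over 12 pairs, 4 of them over 0.1. The highest was between replicate 4 of AMI/S-endMSCs* and replicate 4 of AMI/Placebo. Pigs with different numbers were not compared, so whether same-numbered pigs share more than a number was not tested. The replicate block gave 5 calls in AMI/S-endMSCs* against AMI/Placebo, 1 in AMI/S-endMSCs against AMI/Placebo and 18 in AMI/S-endMSCs* against AMI/S-endMSCs. Over the 27 single calls of members and 648 alternatives, 471 kept direction and threshold, 168 kept the direction only and 9 turned, and 1 call, PDLIM5 in AMI/S-endMSCs* against AMI/S-endMSCs, held under every one. With 4 arrays per group, standard errors of 0.235 to 1.18 on the log2 scale limit what can be detected.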
